A study of Mus musculus with 8 samples.

Results

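The ADAMTS genes encode secreted zinc proteases that cut proteins of the extracellular matrix, and 10 of them are described here in the mouse aorta: Adamts1, Adamts2, Adamts4, Adamts5, Adamts6, Adamts9, Adamts10, Adamts12, Adamts15 and Adamts17. They are 10 of the 19 ADAMTS genes in the deposited tables, which list 25526 gene symbols. The list was chosen from results of these same libraries, the difference between the ages among them, so the values are given as a description. No p-value is given for a single member, and the counts of members called are a description too. RNA from the aorta of male mice was sequenced at 12 weeks of age (4 libraries) and at 2 years of age (4 libraries). All 8 mice carried one Fbn1 allele with the C1041G change (Fbn1C1041G/+), a model of Marfan syndrome in which the microfibril protein fibrillin-1 is altered. The study's design sets growing aneurysms at the younger age against aneurysms whose growth had stopped at the older age. No treatment is named for either age. Libraries from mice without the allele were not analysed here. Changes of normal ageing, of disease stage and those that depend on the shared genotype therefore cannot be told apart. The labels name the tissue only as aorta, without the segment.

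ADAMTS proteases are made as inactive precursors, trimmed by furin-like enzymes on their way out of the cell, and then held in the matrix by their ancillary domains. The family falls into groups by substrate. Hyalectanases cut the large proteoglycans versican and aggrecan, procollagen N-proteinases trim fibrillar procollagens so that fibrils can form, and a microfibril-associated group binds fibrillins and influences how microfibrils are laid down. In the wall of the aorta microfibrils support elastic fibres and hold latent TGF-beta binding proteins, and versican and aggrecan are among the substrates found there.

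The catalytic site is the feature that makes these genes proteases, so its coding bases are shown for all 10. Each run covers the 36 coding bases of the zinc-binding motif, 5′ to 3′ on the coding strand, read from the longest protein-coding transcript in the GENCODE M21 annotation of build GRCm38. The capitals mark the codons of the 3 zinc-binding histidines and of the catalytic glutamate.
Adamts6: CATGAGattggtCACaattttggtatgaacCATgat
Adamts10: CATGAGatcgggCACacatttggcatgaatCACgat
Adamts17: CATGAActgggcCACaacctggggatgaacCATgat
Adamts2: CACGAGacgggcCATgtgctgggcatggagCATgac
Adamts1: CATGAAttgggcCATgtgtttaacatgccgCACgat
Adamts4: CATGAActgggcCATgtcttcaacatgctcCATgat
Adamts5: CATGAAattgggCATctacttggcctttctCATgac
Adamts9: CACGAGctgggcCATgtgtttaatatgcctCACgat
Adamts15: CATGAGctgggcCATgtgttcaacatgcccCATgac
Adamts12: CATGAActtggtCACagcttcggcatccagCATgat
The motif was located by a search that required the 3 histidines and the glutamate, with glycine or asparagine at codon 8. The 4 marked codons therefore encode the same residues in all 10 genes. Codon 8 of the motif encodes asparagine in Adamts1, Adamts4, Adamts9 and Adamts15, and glycine in the other 6 genes. Over these 36 bases Adamts4 and Adamts15 shared 32 bases (88.9%), Adamts1 and Adamts9 shared 31 (86.1%), and Adamts6 and Adamts10 shared 29 (80.6%). Outside such motifs the genes are distinct: no member shared a 50-base coding word with another ADAMTS gene in that annotation. Coordinates are not printed, because the files were made on GRCm39 and the annotation used here is GRCm38.

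The libraries held 16251986 to 33880690 counts. The relation of expression to annotated transcript length differed between the ages in all libraries. The slope of log2 expression, relative to each gene's mean, on log2 transcript length was 0.126 to 0.261 at 12 weeks and −0.313 to −0.108 at 2 years. Values from a second, length-corrected fit (an offset for transcript length and GC content) are therefore given beside results that they change. The summed level of smooth muscle markers was 29200 to 34900 CPM (counts per 1000000 counts of the library) at 12 weeks and 16700 to 25600 CPM at 2 years, and that of fibroblast markers was 2670 to 3120 and 1930 to 4250 CPM. Macrophage markers summed to 463 to 645 CPM at 12 weeks and 1950 to 2560 CPM at 2 years, and lymphocyte markers to 3.16 to 5.33 and 244 to 1210 CPM. One 12-week library, replicate 3, had heart muscle markers at 1060 CPM, against 80.1 CPM in the lowest library of its age. Endothelial markers were at 399.6 CPM in 12 weeks replicate 1, against 779.1 to 857.5 CPM in the others of that age. Skeletal muscle markers were at 267 CPM in 12 weeks replicate 2, against 5.46 CPM in the lowest library of that age. At 2 years, replicate 3 stood apart with a mitochondrial share of 10.3%, the most fibroblast marker RNA and the least smooth muscle marker RNA. The part of these measures in the results below was not tested, and fewer cells of a type and less RNA per cell cannot be told apart in bulk tissue.

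Most of the listed genes fell between 12 weeks and 2 years, and Adamts6 and Adamts10 had the lowest fold changes. All 10 passed the filter on low counts, 7 were called lower at 2 years, 0 higher and 3 neither, at an adjusted p below 0.05 in edgeR's quasi-likelihood fit over 13978 genes. In that fit 52.0% of all genes were called, 26.2% lower and 25.8% higher. The median log2 fold change, 2 years over 12 weeks, was −1.31 over the 10 members and −0.01 over all genes. The CPM ranges of the 2 ages did not overlap for 7 of the 10, against 49.6% of all genes tested. Because the members were chosen on this contrast, nothing is read from these counts.

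**Figure D1:**
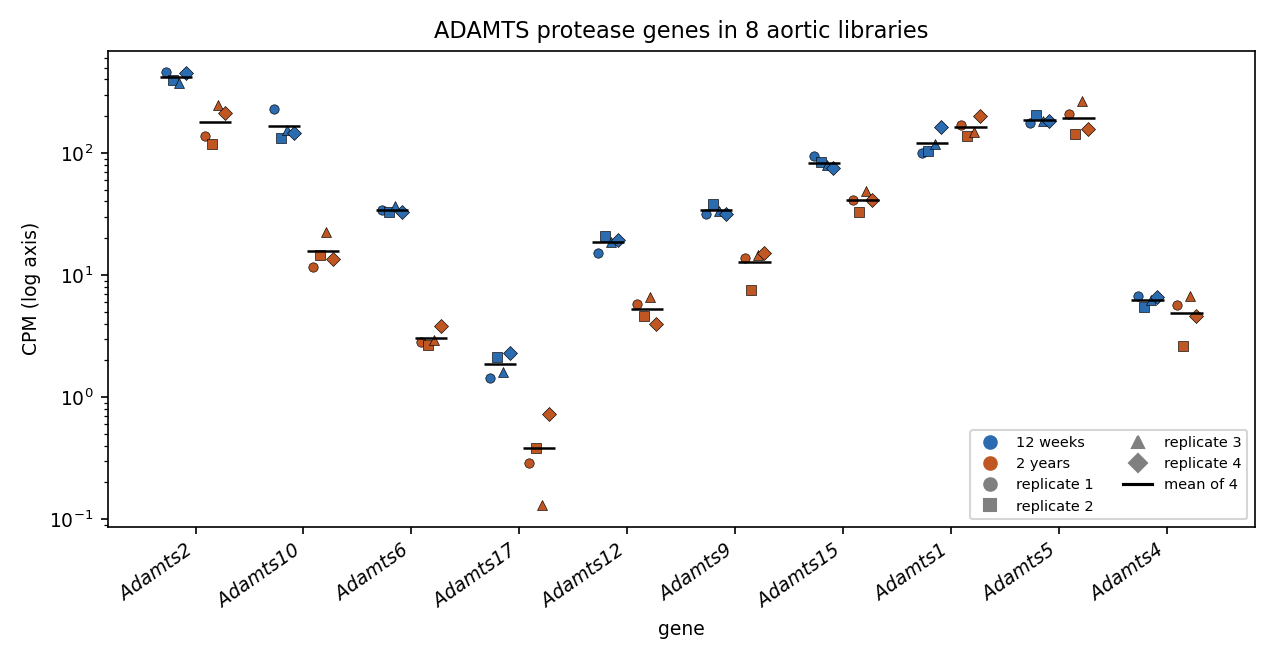
CPM (log axis) of the 10 listed ADAMTS genes in the 4 libraries at 12 weeks and the 4 at 2 years, 1 point a library and 1 bar a group mean. Adamts6 sits between 32.97 and 36.51 CPM at 12 weeks and between 2.64 and 3.78 CPM at 2 years, while the points of Adamts1, Adamts4 and Adamts5 overlap between the ages.

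Adamts6, a protease linked to fibrillin microfibrils and to the processing of latent TGF-beta binding protein 1, had the lowest fold change of the 10. Its level was 34.20, 33.00, 36.51 and 32.97 CPM in the 12-week libraries and 2.80, 2.64, 2.93 and 3.78 CPM in the 2-year libraries. The 12-week values lay close together and every one was above every 2-year value. The mean went from 34.2 ± 1.66 CPM to 3.04 ± 0.511 CPM (SD, n = 4 each), an 11.2-fold lower level and a log2 fold change of −3.49 (SE 0.15). By fold change Adamts6 was the 85th lowest of the 13978 genes tested.

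Adamts10 is the member of the microfibril group whose loss in people causes Weill-Marchesani syndrome, a disorder that fibrillin-1 variants can also cause. It was far more abundant than Adamts6 at 12 weeks, with 231, 133, 155 and 146 CPM, and reached 11.7, 14.6, 22.6 and 13.5 CPM at 2 years. Replicate 1 was the highest 12-week library and replicate 3 the highest at 2 years, and the ages did not overlap. The mean went from 166 ± 44.0 to 15.6 ± 4.83 CPM (SD, n = 4 each), with a log2 fold change of −3.42 (SE 0.25), the 88th lowest of all genes tested.

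Adamts6 and Adamts10 are close relatives, and their ratio within a library takes out the depth of that library. Per length of transcript, the Adamts6 level was 0.0923, 0.155, 0.147 and 0.141 of the Adamts10 level at 12 weeks and 0.149, 0.113, 0.0807 and 0.174 of it at 2 years. These ratios overlapped between the ages, while each gene's own level did not.

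Adamts17, the third microfibril-associated member, is a cause of a Weill-Marchesani-like syndrome and was the scarcest of the 10. It had 33, 55, 43 and 57 counts at 12 weeks and 10, 9, 2 and 21 counts at 2 years, which is 1.44, 2.12, 1.59 and 2.31 CPM and then 0.285, 0.384, 0.130 and 0.729 CPM. The ages did not overlap, but the 2-year values spread widely around their mean of 0.382 ± 0.254 CPM (SD, n = 4). The log2 fold change was −2.22 (SE 0.44), with the largest SE of the 10. Adamts17 overlaps a transcript, Gm44755, on the opposite strand in the GENCODE annotation, and whether the counts used strand is not given in the sources used here, so its reads and those of that transcript cannot be told apart.

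Adamts2 is the procollagen N-proteinase whose loss causes the dermatosparaxis type of Ehlers-Danlos syndrome, and it was the most abundant of the 10 by CPM at 12 weeks. Its values were 457, 396, 372 and 448 CPM at 12 weeks and 138, 119, 249 and 214 CPM at 2 years. Every 12-week library was above every 2-year library, and replicates 3 and 4 were the highest at 2 years. The mean went from 418 ± 41.2 to 180 ± 61.3 CPM (SD, n = 4 each), with a log2 fold change of −1.22 (SE 0.22). Length correction gave a log2 fold change of −0.67.

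Adamts9, Adamts15 and Adamts12 were the other 3 members that fell. Adamts9, a versican-cleaving enzyme, had 31.8, 38.3, 33.5 and 31.6 CPM at 12 weeks and 13.9, 7.59, 14.6 and 15.03 CPM at 2 years, a log2 fold change of −1.40 (SE 0.20). Adamts15, also a versicanase, had 94.3, 83.6, 79.9 and 75.3 CPM at 12 weeks and 41.03, 33.01, 49.22 and 41.4 CPM at 2 years, a log2 fold change of −1.02 (SE 0.14). In neither gene did the ages overlap, and 2 years replicate 2 was the lowest library of both. Length correction gave log2 fold changes of −0.88 for Adamts9 and −0.58 for Adamts15.

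Adamts12, which cuts cartilage oligomeric matrix protein, had 15.11, 20.99, 18.61 and 19.4 CPM at 12 weeks and 5.82, 4.65, 6.57 and 3.99 CPM at 2 years. The 2 ages stood well apart, with means of 18.5 ± 2.48 and 5.26 ± 1.15 CPM (SD, n = 4 each) and a log2 fold change of −1.82 (SE 0.18). Its transcript is long, at 8579 nucleotides, and in the length-corrected fit its log2 fold change was −1.23.

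The other 3 hyalectanases had ages that overlapped. Adamts1, which inflammatory stimuli induce in several tissues, had 100.1, 104, 119 and 163 CPM at 12 weeks and 168, 139, 148 and 201.5 CPM at 2 years. The ages overlapped through the highest 12-week library, replicate 4. The mean was 122 ± 28.6 CPM at 12 weeks and 164 ± 27.9 CPM at 2 years (SD, n = 4 each), with a log2 fold change of 0.43 (SE 0.18). With 1 library left out the log2 fold change ranged from 0.32 (without 2 years replicate 4) to 0.60 (without 12 weeks replicate 4). It was 0.48 without 2 years replicate 3 and 0.62 in the length-corrected fit.

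Adamts5, a main aggrecanase, had 177, 206, 182 and 183 CPM at 12 weeks and 209.3, 144, 267 and 156 CPM at 2 years. The 2-year values lay on both sides of all the 12-week values, and the spread was wider at 2 years (SD 56.5 CPM) than at 12 weeks (SD 12.7 CPM). The log2 fold change was 0.05 (SE 0.19), and it was −0.14 without 2 years replicate 3. Its transcript, at 10791 nucleotides, is the longest of the 10, and in the length-corrected fit the log2 fold change was 0.82. The direction for Adamts5 thus differed between these fits.

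Adamts4, the other classical aggrecanase, was low in both groups, at 6.77, 5.43, 6.21 and 6.65 CPM at 12 weeks and 5.71, 2.60, 6.70 and 4.65 CPM at 2 years. The ages overlapped, and the log2 fold change was −0.36 (SE 0.26).

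In the length-corrected fit, 7 members were called lower and 2 higher, the 2 being Adamts1 and Adamts5, against 50.8% of all genes called in either direction. The median over the 10 was then −0.78, and over all genes −0.06. The same 7 members were called lower in all 16 alternative fits. Among the 4529 tested genes with transcripts as long as the members' (4043 to 10791 nucleotides), 42.9% were called lower and 11.7% higher, with a median log2 fold change of −0.34. Adamts10, with the shortest transcript of the 10, lay in a length class whose median was −0.13, and Adamts6, Adamts15 and Adamts17 in one whose median was −0.39. Adamts2, Adamts5, Adamts9 and Adamts12 lay in the longest class, with a median of −0.64.

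**Figure D2:**
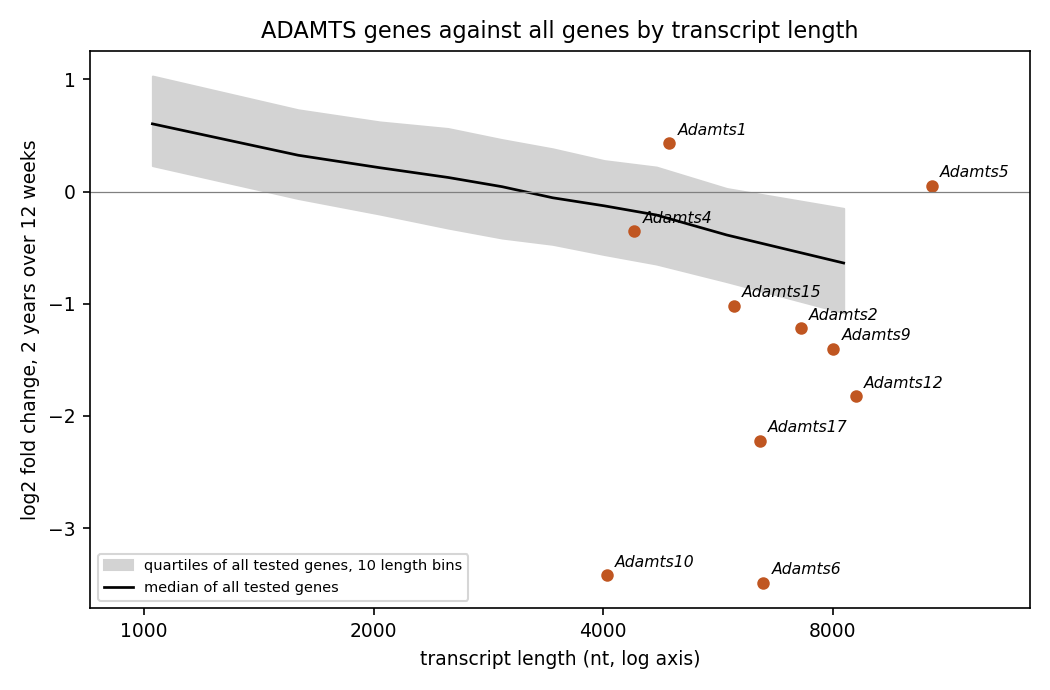
Log2 fold change, 2 years over 12 weeks, against transcript length (nucleotides, log axis) for the 10 listed ADAMTS genes (points), with the median (line) and quartiles (band) of all tested genes in 10 length classes. Adamts10 at −3.42 and Adamts6 at −3.49 lie far below the band, Adamts4 lies within it, and Adamts1 lies above it. Adamts5, at 0.05, lies to the right of the band's end and above the upper quartile of the longest class (−0.15).

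Levels between genes were compared as CPM per kilobase of transcript. At 12 weeks the order was Adamts2 (57.6 ± 5.67), Adamts10 (41.2 ± 10.9), Adamts1 (24.9 ± 5.85), Adamts5 (17.3 ± 1.17), Adamts15 (14.05 ± 1.36), Adamts6 (5.27 ± 0.256), Adamts9 (4.21 ± 0.388), Adamts12 (2.16 ± 0.289), Adamts4 (1.43 ± 0.138) and Adamts17 (0.291 ± 0.0648), each a mean ± SD over 4 libraries in CPM per kilobase. Neighbours in that order overlapped between libraries only for Adamts2 with Adamts10 and Adamts10 with Adamts1.

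At 2 years Adamts1 came first at 33.6 ± 5.71 CPM per kilobase, followed by Adamts2 at 24.8 ± 8.44 and Adamts5 at 17.99 ± 5.23 (SD, n = 4). The ranges of these neighbours overlapped, so their order at 2 years lay within the spread between libraries. Adamts15 (6.94 ± 1.12) and Adamts10 (3.86 ± 1.19) came next and overlapped each other. Adamts6, at 0.469 ± 0.0789 CPM per kilobase, was the ninth of the 10 and overlapped Adamts12 (0.613 ± 0.135), with only Adamts17 lower.

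As a share of the length-scaled level of all 19 ADAMTS genes, Adamts10 made up 22.0 ± 3.75% at 12 weeks and 3.67 ± 0.993% at 2 years (SD, n = 4 each). Adamts6 made up 2.87 ± 0.335% and then 0.446 ± 0.0585%. The shares of Adamts1, from 13.5 ± 3.36% to 32.0 ± 4.53%, and of Adamts5, from 9.45 ± 1.38% to 17.0 ± 3.65%, were larger at 2 years, in a total that was smaller. That total was 171.4 to 210.2 CPM per kilobase at 12 weeks and 82.8 to 119.6 at 2 years. Adamts15 kept a like share, 7.61 ± 0.616% and 6.58 ± 0.438%.

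**Figure D3:**
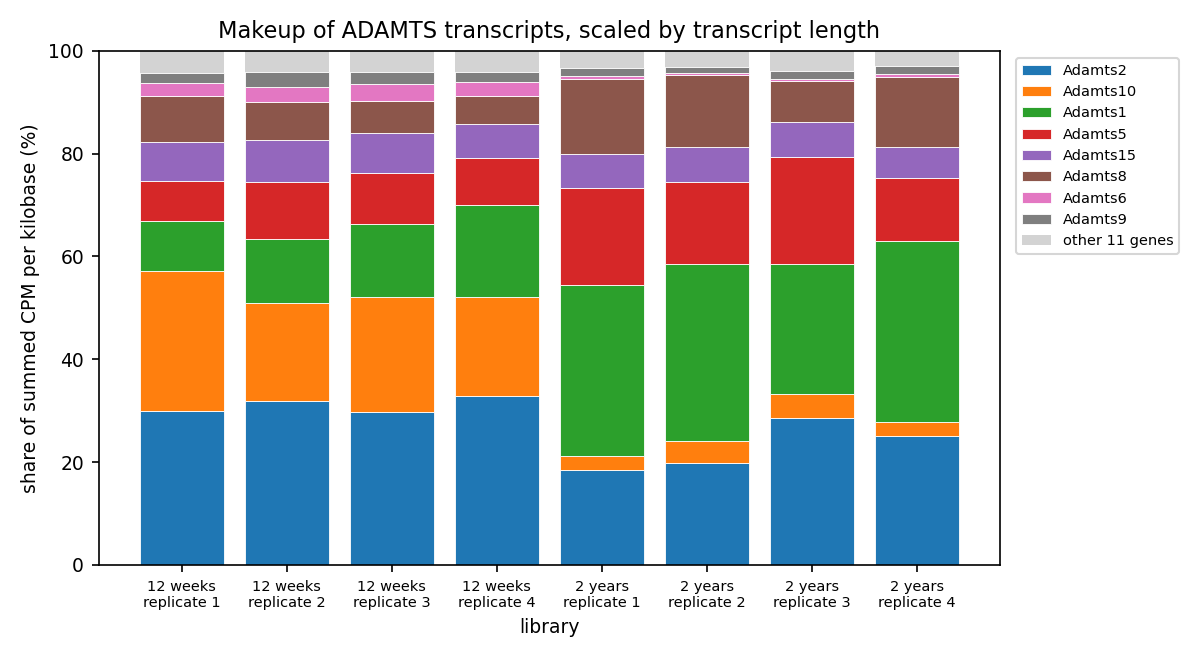
Share (percent) of the length-scaled level of all 19 ADAMTS genes held by each of the leading genes in each of the 8 libraries, with the other 11 genes summed. Adamts10 holds 19.2% to 27.2% at 12 weeks and 2.79% to 4.68% at 2 years, and Adamts1 holds 9.75% to 17.8% and then 25.3% to 35.1%.

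The members did not move as one among the 2-year libraries. Replicate 2 was the lowest 2-year library for 7 members (Adamts1, Adamts2, Adamts4, Adamts5, Adamts6, Adamts9 and Adamts15), and it had the most negative length slope, −0.313. Replicate 3 was the highest for 6 (Adamts2, Adamts4, Adamts5, Adamts10, Adamts12 and Adamts15), with a fibroblast marker sum of 4249 CPM, the highest of the 8 libraries. For Adamts17 the same replicate 3 was the lowest. At 12 weeks, replicate 1 was the highest library for Adamts10 and had the most positive slope of expression on GC content, 0.204 log2 units per 10 percentage points, and the Adamts10 transcript has 58.5% GC. Whether these measures contribute to the members' spread was not tested.

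Set against the smooth muscle marker sum of the same library, Adamts6 was 7.42-fold lower at 2 years and Adamts10 6.72-fold lower, by the ratio of group means. Adamts17 was 3.34-fold, Adamts12 2.27-fold and Adamts9 1.72-fold lower on that scale. For these 5 the ages did not overlap, whereas for Adamts2 and Adamts15 the 2-year replicate 3 lay above every 12-week library. The members were chosen on the age contrast, so nothing is read from these overlaps. Adamts1 and Adamts5 were higher at 2 years on that scale, with means of 3.74 and 7.63 CPM per 1000 CPM of smooth muscle markers for Adamts1 and of 5.75 and 9.37 for Adamts5, and their ages did not overlap. The smooth muscle marker sum was itself lower at 2 years. Of its 8 markers 5 were called lower, against 26.2% of all genes, and 3 were not called. Their log2 fold changes differed, with Myh11 at −1.72, Acta2 at −0.38 and Tagln at 0.15. Acta2 and Tagln were not called. In CPM the ages overlapped for both Adamts1 and Adamts5. Set against the fibroblast marker sum, Adamts6 was 9.63-fold and Adamts10 9.90-fold lower, and the ages did not overlap for any of the 7 members called lower, whereas they overlapped for Adamts1 and Adamts5.

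The genes whose level was most like that of Adamts6 over the 8 libraries were Gal3st3 and Ccdc60 (Pearson r of log2 CPM 0.998 each), Gabpb2 (0.995), Phkg1 (0.995) and Trim6 (0.995), among 12914 genes averaging 1 CPM or more. All 5 share with Adamts6 the difference between the ages. By deviations from the age means the most alike were Cd2 (0.972), Plcg1 (0.964), Atp10d (0.961), Med12l (0.953) and Prx (0.945). Cd2 was higher at 2 years (log2 fold change 3.97), opposite to Adamts6, and had only 14 to 19 counts in the 12-week libraries. The others were lower at 2 years. For Adamts2, the member with the highest level per length at 12 weeks, genes among the most alike were Taok2 (0.993), Adgrl1 (0.993), Rabep2 (0.991) and Dnase1l2 (0.991). These are descriptions over 8 libraries that also share length and GC slopes.

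Of the other 9 ADAMTS genes 5 passed the filter on low counts and 2 of them fell, against 26.2% of all genes tested. The median log2 fold change of the 5 was −0.52. Adamts14, a second procollagen N-proteinase, had 17.6, 8.43, 7.32 and 8.03 CPM at 12 weeks and 2.05, 1.75, 3.84 and 3.47 CPM at 2 years, a log2 fold change of −1.91 (edgeR adjusted p = 0.000899, SE 0.34). Adamts16 was scarce, at 1.11 ± 0.448 CPM and then 0.198 ± 0.155 CPM (SD, n = 4 each), with a log2 fold change of −2.55 (edgeR adjusted p = 0.00372), which was −3.18 without 2 years replicate 2. Adamts3, the third procollagen N-proteinase, had a log2 fold change of −0.52 and did not pass (edgeR adjusted p = 0.114).

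Adamts7, the nearest relative of Adamts12, was at 4.86 ± 1.53 and 3.60 ± 1.68 CPM (SD, n = 4 each), with an edgeR adjusted p = 0.261. Without 2 years replicate 3 its log2 fold change was −0.81 and called lower. Adamts8, which lies beside Adamts15 in the genome, was at 46.9 ± 14.9 and 47.5 ± 11.6 CPM (edgeR adjusted p = 0.948), beside a log2 fold change of −1.02 for Adamts15. Adamts1 and Adamts5 are likewise neighbours, at 0.43 and 0.05. Adamts18, Adamts19 and Adamts20 were too low to be tested. Adamts13, which cuts von Willebrand factor, had 0 counts in all 8 libraries, and a limit of 3 counts is 0.0856 to 0.195 CPM in them, which covers counting error only.

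ADAMTS-like proteins share the ancillary domains of the family but lack the protease. Of 7 tested, 3 fell, 0 rose and 4 did not pass, with a median log2 fold change of −0.85. Among all genes tested 26.2% were called lower and 25.8% higher. Thsd4, whose product promotes fibrillin-1 assembly, had 730, 872, 782 and 881 CPM at 12 weeks and 240, 145, 181 and 368.3 CPM at 2 years, a log2 fold change of −1.80 (edgeR adjusted p = 0.00018, SE 0.25). Adamtsl4, a fibrillin-binding protein, had a log2 fold change of −0.85 (edgeR adjusted p = 0.000363), and Papln one of −1.57 (edgeR adjusted p = 0.00226). Adamtsl2 was at 60.5 ± 47.1 and 22.3 ± 13.4 CPM (SD, n = 4 each) and did not pass (edgeR adjusted p = 0.085). Its log2 fold change was −1.45, and it was −0.76 without 12 weeks replicate 1 and −1.69, called lower, without 12 weeks replicate 3. Adamtsl3 was called lower without 12 weeks replicate 1 (−0.50) or 2 years replicate 4 (−0.56), and Adamtsl5 without 12 weeks replicate 2 (−0.63). In the length-corrected fit Adamtsl1 was called higher (0.80), Adamtsl5 lower (−0.51) and Thsd4 lower at −1.17, and the list median was −0.52.

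**Figure D4:**
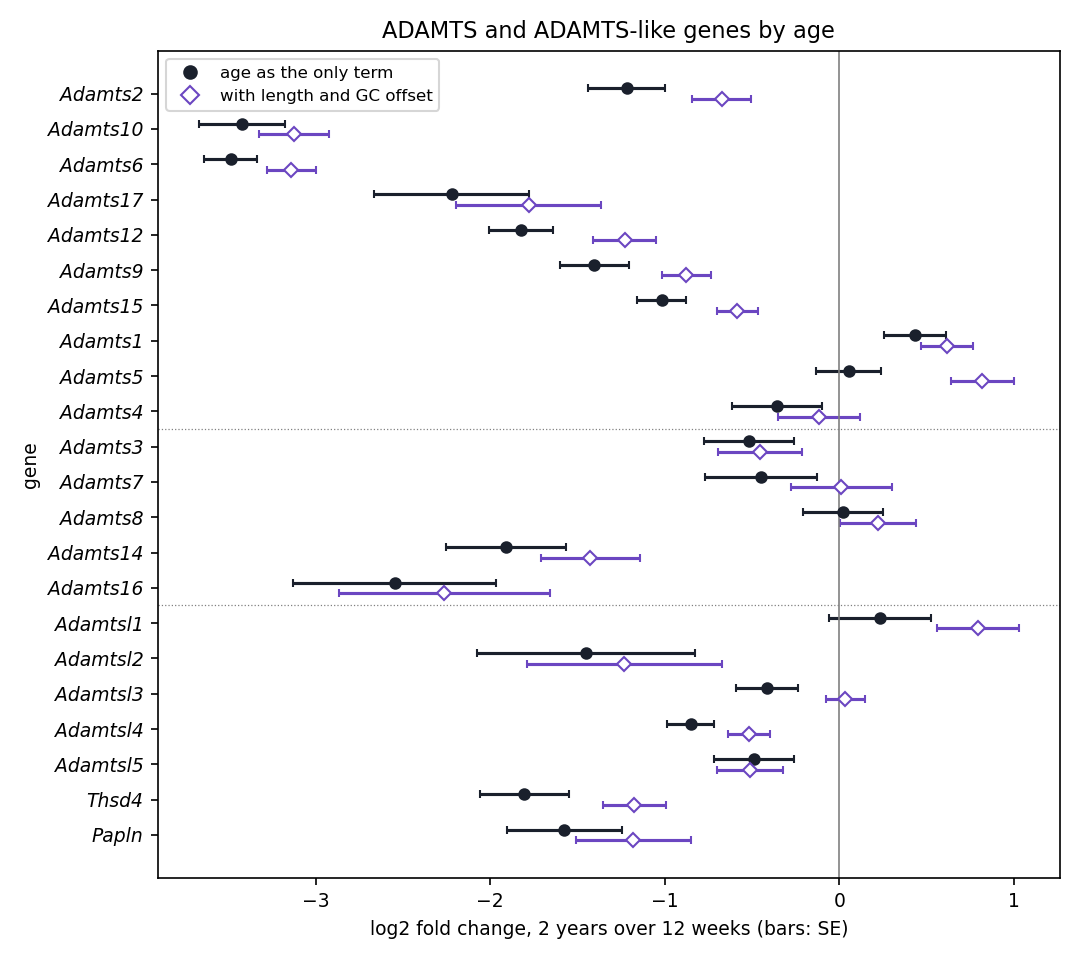
Log2 fold change, 2 years over 12 weeks, with its SE (bars), for the tested ADAMTS and ADAMTS-like genes, with age as the only term (filled circles) and in the length-corrected fit (open diamonds). Adamts6 moves from −3.49 to −3.14 and Adamts10 from −3.42 to −3.13, while Adamts5 moves from 0.05 to 0.82.

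The substrates and partners of the members did not share 1 direction, and the median log2 fold change of the microfibril partners was 0.30, or −0.02 in the length-corrected fit. Fbn1, the fibrillin-1 gene that carries the allele, had 762, 918, 774 and 836 CPM at 12 weeks and 513, 365, 447 and 610 CPM at 2 years, a log2 fold change of −0.77 (edgeR adjusted p = 0.00309, SE 0.17). In the length-corrected fit that value was 0.15 and not called, so the direction for Fbn1 depends on that correction. Of the 10 microfibril partners 4 fell (Fbn1, Ltbp1, Ltbp3 and Ltbp4), Sdc4 rose (0.55, edgeR adjusted p = 0.00471) and 5 did not pass, whereas in the length-corrected fit Fbn2 (1.97), Ltbp2 (1.27) and Fn1 (1.05) were called higher and 0 genes lower, with Sdc4 at 0.30 and not called. Uncorrected, 2 were called higher when 2 years replicate 1 or 2 was left out. The uncorrected fit called 26.2% of all genes lower and 25.8% higher. Ltbp1, the latent TGF-beta binding protein linked to Adamts6, had a log2 fold change of −0.78 (edgeR adjusted p = 0.0106), and Fn1, which varied from 3221 to 9793 CPM at 2 years, one of 0.46 without the correction (edgeR adjusted p = 0.283).

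Of the 6 fibrillar procollagen genes (median log2 fold change −0.45) that the Adamts2 group acts on, Col5a1 and Col5a2 fell, with log2 fold changes of −1.18 (edgeR adjusted p = 0.000532) and −1.24 (edgeR adjusted p = 0.000573). Length correction gave −0.41 and −0.84, both called lower, and the list median was −0.08. Col2a1, a cartilage collagen, was called higher at 3.72 (edgeR adjusted p = 0.0184) from 0.791 ± 1.03 to 10.6 ± 10.2 CPM (SD, n = 4 each), with ranges that overlapped. Its log2 fold change was 2.85 without 2 years replicate 4 and 5.25 without 12 weeks replicate 3. Col1a1, Col1a2 and Col3a1 did not pass the test, but without 2 years replicate 3, the library with the most fibroblast marker RNA, 5 of the 6 were called lower.

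Among the hyalectans cut by Adamts1, Adamts4, Adamts5, Adamts9 and Adamts15, Vcan (versican) had a log2 fold change of 0.22 (edgeR adjusted p = 0.356), and Acan (aggrecan) fell by 0.84 on the log2 scale (edgeR adjusted p = 0.0145). In the length-corrected fit Vcan was called higher at 1.14 and Acan was not called at −0.27, and the list median was 0.44. Of the 4 genes tested on that list of 8 (median −0.31 without the correction), Ncan also fell, from 2.63 to 0.739 CPM, and the link protein gene Hapln1 rose from 1.94 to 5.40 CPM (edgeR adjusted p = 0.00127 and 0.00333).

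Of 6 genes for inhibitors and clearance 2 rose, 0 fell and 4 did not pass, and their median log2 fold change was 0.09. The share of all genes called higher was 25.8%. In the length-corrected fit 4 were called higher (Timp1, Timp3, Timp4 and Lrp1) and the median was 0.66. Timp1 had 50.9, 32.9, 20.9 and 18.2 CPM at 12 weeks and 277, 251.1, 455 and 151 CPM at 2 years, a 9.23-fold higher level (log2 fold change 3.21, edgeR adjusted p = 0.000241). Length correction gave a log2 fold change of 2.37. Timp4 rose 2.73-fold (edgeR adjusted p = 0.000373). Timp3, the tissue inhibitor that acts on several ADAMTS aggrecanases, was at 2443 ± 250.0 and 2948 ± 442 CPM (SD, n = 4 each, edgeR adjusted p = 0.187) and was called higher in the length-corrected fit, at 0.42.

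Genes for maturation and secretion of the precursors fell for 6 of 7, with 0 higher and a median log2 fold change of −0.54. Of all genes tested 26.2% were called lower. With length correction 6 of the maturation genes were also called lower, with Pofut2 in place of Pcsk6, and the median was −0.35. With that correction and a replicate block, 3 were called lower. Mmp17, a membrane metalloprotease that activates Adamts4, went from 112 to 42.4 CPM (log2 fold change −1.40, edgeR adjusted p = 8.74e-06). Furin, which removes the propeptide of many ADAMTS precursors, had 122, 90.0, 106 and 110 CPM at 12 weeks and 58.3, 39.2, 72.6 and 77.6 CPM at 2 years, a log2 fold change of −0.79 (edgeR adjusted p = 0.00624). Pcsk5 fell by 1.10 and Pcsk7 by 0.54 on the log2 scale (edgeR adjusted p = 0.000522 and 0.00502). Length correction gave log2 fold changes of −0.86 for Mmp17, −0.48 for Furin, −0.57 for Pcsk5 and −0.34 for Pcsk7, all called lower.

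Cytokines known to induce ADAMTS genes in several cell types rose for 3 of the 5 tested (median log2 fold change 0.60), and for 5 of the 7 then tested when 12 weeks replicate 1 or 4 was left out. With all 8 libraries 25.8% of all genes were called higher. Il1b went from 0.410 to 14.2 CPM (log2 fold change 5.11, or 4.46 in the length-corrected fit, edgeR adjusted p = 1.77e-06), Tnf from 0.224 to 1.503 CPM (2.72, edgeR adjusted p = 0.00048) and Tgfb1 from 62.3 to 94.6 CPM (0.60, edgeR adjusted p = 0.00509). The macrophage marker sum given above was higher in the same 2-year libraries, and its part in these values was not tested. Of 12 immediate early genes, which respond to handling and stress, 4 rose, against 25.8% of all genes, and 0 fell. Their median log2 fold change was 0.14, with Junb at 1.85 (edgeR adjusted p = 2.74e-05). Of the 4, Zfp36 was not called when 12 weeks replicate 1 or 2 or 2 years replicate 3 or 4 was left out (0.56 to 0.69), and Ier2 when any library but the first of each age was (0.50 to 0.67). Ier2 was not called in the length-corrected fit either, at 0.38.

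**Figure D5:**
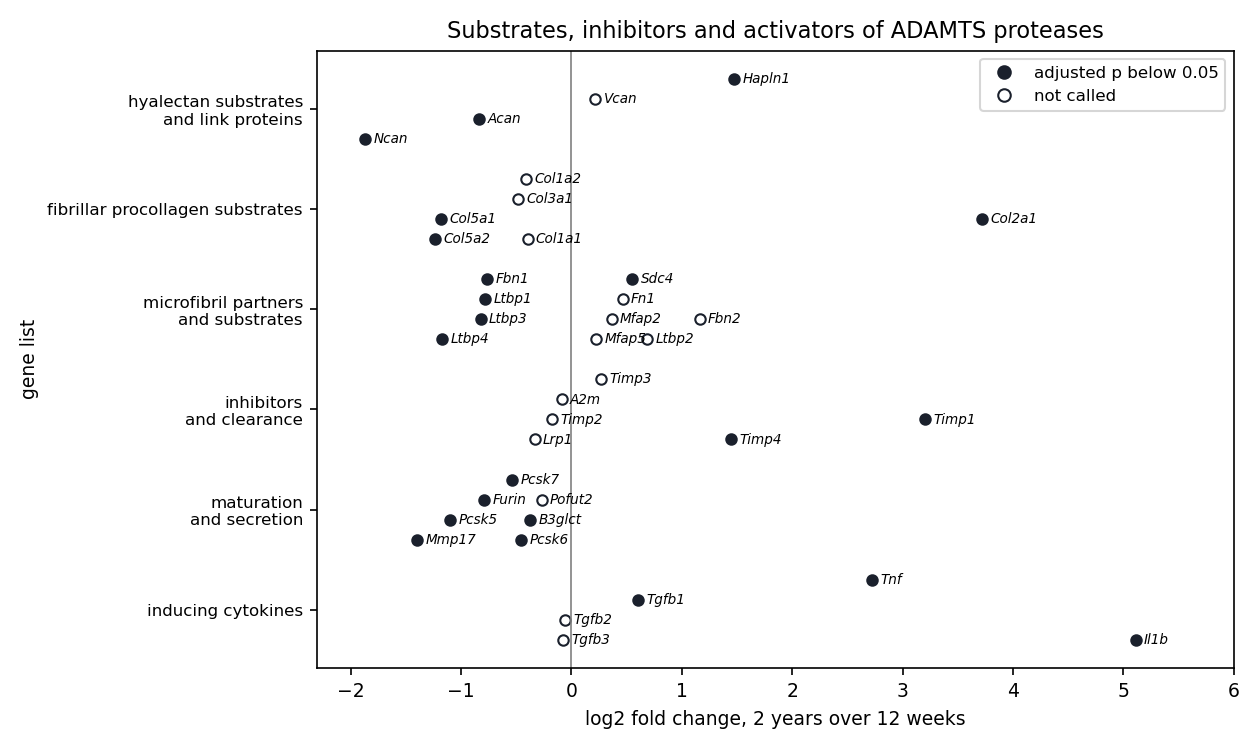
Log2 fold change, 2 years over 12 weeks, of the tested substrates, inhibitors, activators and inducers of ADAMTS proteases by gene list, filled where the adjusted p was below 0.05. The 7 maturation genes all lie below 0, Timp1 (3.21) and Il1b (5.11) lie far above it, and the microfibril partners lie on both sides.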

How the data were processed

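RNA from 8 aortas (4 mice at each age, per the labels) was sequenced on a NovaSeq instrument, per the labels' protocols. The authors deposited 1 table of raw counts per gene symbol for each library, per the labels, made on genome build GRCm39, per the submitters' processing notes. For aligner, counter, annotation and strand, the tool or setting was not given in the sources used here. The labels do not say whether mice shared a litter or a batch, so p-values measure only the spread between these libraries.

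The counts were filtered with filterByExpr, scaled by TMM and fitted with edgeR 4.0.16 (glmQLFit and glmQLFTest, R 4.3.3, limma 3.58.1), with age as the only term and Benjamini-Hochberg adjustment over 13978 genes. A gene was called at an adjusted p below 0.05. Log2 CPM used a prior count of 2, and each SE was derived from the fold change and the test statistic. Transcript length and GC content came from GENCODE M21 and were found for 13852 tested genes (99.1%), of the longest protein-coding transcript, and the offset was a spline with 4 degrees of freedom for each. Libraries of 1 age differed by a chi-square of 22.9 to 152 per degree of freedom, so none is a copy of another. The fit was tested on simulated data. Alternatives were DESeq2 1.42.0, the offset, no low-count filter, a replicate block and leaving out libraries. The members and gene lists were chosen with earlier results of these data known. All 10 members and the other family genes are named, and of each partner list up to 4 called genes of smallest p, plus Fbn1, Timp3, Vcan, Acan, Ltbp1, Fn1 and Furin. Some items of these lists are not reported here.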

Additional observations from a re-analysis of the deposited data

Results flagged for a closer look

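In 30 groups of 4 libraries, 4 held a library far from the others of its age by Dixon's criterion, and chance gives about 1 in 20 such groups. Adamts9 was at 7.59 CPM in 2 years replicate 2, where the other 3 libraries of that age lay between 13.89 and 15.03 CPM. Adamts3 was at 3.01 CPM in 12 weeks replicate 1, against 2.46 to 2.52 CPM in the others. Adamts7 was at 6.11 CPM in 2 years replicate 3, against 2.54 to 2.95 CPM. Adamts14 was at 17.6 CPM in 12 weeks replicate 1, against 7.32 to 8.43 CPM.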

How the results depend on the processing

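Of 160 values of the members under 16 alternatives, 150 kept their direction and side of the threshold, 8 became called and 2 turned. The 7 members called lower were the same in every alternative. The number called higher was 0, and 1 with DESeq2, 1 with a replicate block, 2 with the length and GC offset, 2 with block and offset, and 0 to 1 with a library left out (1, Adamts1, without 12 weeks replicate 4 or 2 years replicate 3). Of 50 tested family and partner genes 8 were called higher and 19 lower; with the offset 14 were higher, and with block and offset 13 were higher and 12 lower. The log2 fold change of Adamts5 turned to −0.14 without 2 years replicate 3 and to −0.14 without both libraries numbered 3. With the offset, Adamts7 turned to 0.013, Adamtsl3 to 0.0342 (0.0291 with the block) and Fbn1 to 0.15 (0.14 with the block). Adamts8 ranged from −0.10 to 0.25 with a library left out, and Fn1 from −0.00799 (without 2 years replicate 4) to 0.63. The cause was not tested. Deviations from the age means correlated at −0.308 to 0.0511 between libraries with the same replicate number. Between libraries with different numbers the range was −0.125 to 0.283. These few correlations cannot tell whether the numbers pair the libraries. With the replicate block Col2a1 was not called (log2 fold change 3.85), and with block and offset Col5a1 was not (−0.42) and 3 of 7 maturation genes were lower. Over all genes the replicate block called 3112 higher and 3320 lower, against 3611 and 3661 without it. Depth limits Adamts17, which had 2 to 21 counts at 2 years.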
